A study of Mus musculus with 6 samples.

Results

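The translation repressors described here are the RNA-binding proteins Fmr1, Fxr1, Fxr2, Caprin1, G3bp1, G3bp2, Stau1, Stau2 and Pum2. They were chosen by gene symbol, and all 9 were found among the 55376 genes of the count and FPKM tables. The tables come from RIP-seq of CPEB1 in freshly isolated satellite cells (fiSCs), the muscle stem cells of C57BL/6 mice aged 3 months, sorted by flow cytometry. There were 2 libraries from the immunoprecipitation with an anti-CPEB1 antibody (CPEB1 IP), 2 from a control immunoprecipitation with an anti-IgG antibody (IgG) and 2 from input RNA, for which no antibody was used. The labels name no mutation or treatment in any group. The question was which transcripts are recovered with CPEB1 beyond the control antibody, here asked of transcripts that themselves encode translation repressors. The values below are transcript levels, not protein levels.

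CPEB1 binds the cytoplasmic polyadenylation element (CPE), a U-rich motif of the 3′ UTR, and can hold a transcript silent or drive poly(A) tail lengthening and translation. The 9 proteins work on the same layer of control. Fmr1 encodes FMRP, which represses translation of many mRNAs and is lost in fragile X syndrome, and Fxr1 and Fxr2 are its paralogs. G3bp1 and G3bp2 nucleate stress granules, the cytoplasmic bodies in which untranslated mRNA gathers, and Caprin1 is their binding partner. Stau1 and Stau2 are the Staufen proteins, which bind double-stranded RNA and act in mRNA transport, decay and translation. Pum2 is a Pumilio protein that binds its own element in 3′ UTRs and represses or destabilizes the mRNA. In satellite cells, repressors of this kind are known for holding the mRNA of myogenic factors untranslated during quiescence.

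Canonical CPEs (TTTTAT or TTTTAAT in the DNA sense strand) were present in the longest annotated 3′ UTR of 7 of the 9 genes. Pum2 held 8, G3bp1 7, Caprin1 6, Fmr1 and G3bp2 4 each, Stau2 2 and Fxr1 1, whereas Fxr2 and Stau1 held 0. Only the sense strand was searched, and matches that overlapped each other were all counted. Among all tested genes with an annotated 3′ UTR, 65.4% held at least 1 CPE, so holding a CPE is common. The windows below show, for 6 of these genes, the CPE nearest upstream of the last AATAAA polyadenylation signal in that UTR. They are 30 bases of the mm10 reference, written 5′ to 3′ in the sense of the transcript, with the CPE in capitals.
Fmr1 (chrX:68717375-68717404, plus strand): caacagattggaTTTTATgttgacatttgt
Fxr1 (chr3:34069437-34069466, plus strand): ttttgttacatTTTTAATaatatgcaacca
Caprin1 (chr2:103763820-103763849, minus strand): taagtactttagTTTTATcgagtataagtt
G3bp1 (chr11:55503814-55503843, plus strand): ctaatgtgatgTTTTAATacctaaaactgc
G3bp2 (chr5:92052379-92052408, minus strand): ttgctgattttaTTTTATtttgatggtaat
Pum2 (chr12:8751625-8751654, plus strand): tagaagggatttTTTTATtcgaggtctgca

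These CPEs lay at different distances from the signal. Between the CPE and the last AATAAA lay 51 bases in Fmr1, but 207 in G3bp2, 499 in Fxr1, 863 in Caprin1, 884 in Pum2 and 987 in G3bp1. In G3bp2 this CPE followed another that started 5 bases upstream, at 2380 and 2385 bases after the stop codon. In Fmr1 and Fxr1 the last AATAAA was not close to the annotated end, which lay 571 and 868 bases after the CPEs shown. A further CPE of Fmr1 lay downstream of its last AATAAA, 29 bases from the UTR end.

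The Pumilio element (TGTANATA, sense strand) was present in 3 of the 9 genes, namely in 2 copies in Fmr1, 2 copies in Pum2 itself and 1 copy in G3bp2, against 28.7% of all tested genes with a 3′ UTR. They are shown because Pum2 is among the members and carries the element that Pumilio proteins bind. The element is in capitals.
Fmr1 (chrX:68717288-68717317, plus strand): gtttaaaatacTGTAGATAattaaccaagg
Fmr1 (chrX:68717349-68717378, plus strand): gcaatattctcTGTACATAttagcgacaac
G3bp2 (chr5:92052680-92052709, minus strand): gtgtatatgtgTGTAAATAtttcacacaac
Pum2 (chr12:8750154-8750183, plus strand): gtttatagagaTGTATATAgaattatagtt
Pum2 (chr12:8750407-8750436, plus strand): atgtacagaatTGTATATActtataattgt

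In Fmr1 the second Pumilio element started 1685 bases after the stop codon and a CPE started at 1712. These counts were set beside those of UTRs of like length. The 3′ UTR of G3bp1 was 5170 bases, longer than in 94.9% of tested genes, and 97.1% of the 696 genes with a 3′ UTR within 20% of that length held a CPE, with a median of 6. Pum2 had 8 CPEs in 2861 bases, where genes of like length had a median of 3. Stau1 had 0 in 1795 bases, whereas 80.6% of genes of like length held at least 1. Fxr2 had the shortest 3′ UTR of the 9, at 598 bases, and 45.4% of genes of like length held a CPE. A match is a sequence in the annotated UTR, and which UTR the cells used was not measured.

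**Figure D1:**
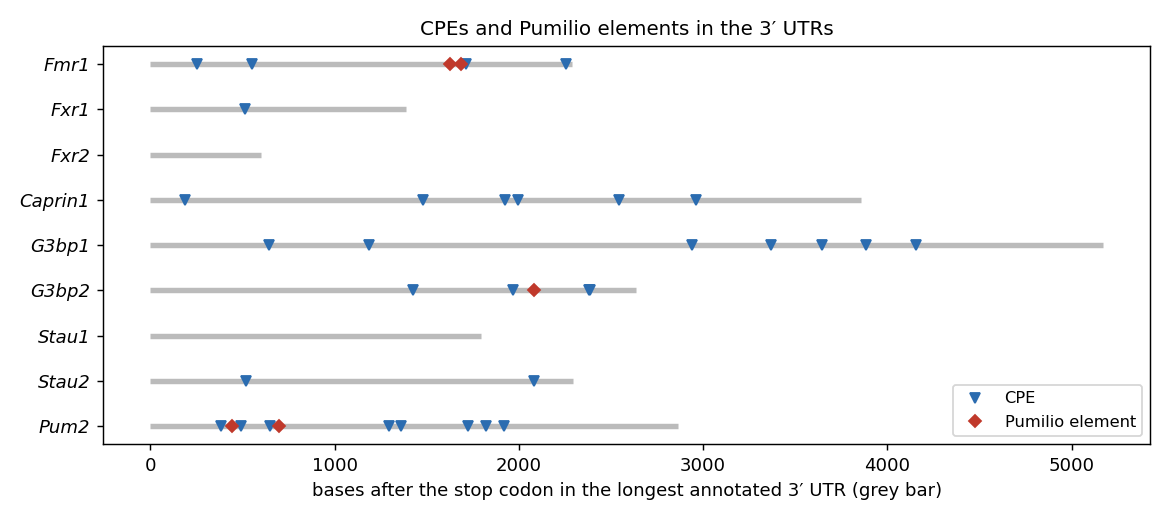
Positions of canonical CPEs (blue triangles) and Pumilio elements (red diamonds) along the longest annotated 3′ UTR of each gene, in bases after the stop codon on the x axis; grey bars end at the UTR length. Pum2 holds 8 CPEs and G3bp1 7, and the bars of Fxr2 and Stau1 hold neither motif.

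In mm10 the genes lie on 7 chromosomes and none of them overlaps another member. Fmr1 spans chrX:68678541-68717963 and Fxr1 chr3:34019943-34070322. Fxr2 spans chr11:69632990-69653297, and G3bp1 lies on the same chromosome at chr11:55469685-55504838. Caprin1 spans chr2:103762941-103797649 and Stau1 chr2:166947549-166996299. G3bp2 spans chr5:92052146-92083719, Stau2 chr1:16228674-16520112 and Pum2 chr12:8674134-8752581. No 75-base stretch of exon was shared between any 2 members, so reads of that length could not be split between the paralogs. Of the 75-base stretches of G3bp2, 21.7% were shared with other genes, among them Gm26582, an antisense gene that overlaps 2050 of its exon bases and had 18 counts over all 6 libraries. G3bp1 shared 4.33% with 4 predicted genes (Gm13346, Gm13347, Gm5913 and Gm9509), Fmr1 1.15% and Fxr1 0.487%, and the other members 0. How multi-mapped reads were handled, and whether strand was used, is not given in the sources used here, so the G3bp2 counts are the least certain. Fxr1 overlapped 178 exon bases of the antisense gene Dnajc19, which had 692 counts over all libraries, and without strand the reads of these bases cannot be told apart.

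Depth differed between the groups. Counts on genes were 3270067 and 3314547 in input, 2564323 and 4941653 in CPEB1 IP and 1284716 and 1359052 in IgG. They made up 71.1% and 79.8% of the library total behind the deposited FPKM in input and 69.9% and 69.5% in CPEB1 IP, but 39.5% and 39.1% in IgG. All 10 satellite cell markers examined, including Pax7, Myf5 and Myod1, had counts in every library. On the TMM-normalized scale (CPM, the count scaled to library size) they summed to 13152 to 14448 in input. The sums were 11183 to 11285 in IgG and 12377 to 14666 in CPEB1 IP. Sdc4 carried the largest part in every library, and the sums hid moves in both directions. Pax7, Itga7, Cdh15, Chodl, Calcr and Des were lower in both kinds of immunoprecipitate than in input, whereas Myod1 was higher. Cdh15 had 687 and 605 CPM in input, 79.8 and 73.6 in IgG and 124 and 143 in CPEB1 IP. For Myod1 the values were 1062 and 946, 1929 and 1910, and 2540 and 2270. The sums for other cell types were lower, over 3 or 4 markers each, and no marker was at 0 in a whole group. Single markers were not all lower. In CPEB1 IP the fibro-adipogenic marker Dcn (295 and 277 CPM) exceeded Pax7 (90.8 and 92.5). It did so in IgG as well (224 and 202 against 92.7 and 80.8), whereas in input Dcn (73.0 and 78.7) lay below Pax7 (329 and 353). Most of the sums were higher in both kinds of immunoprecipitate than in input. The 4 fibro-adipogenic markers (Pdgfra, Ly6a, Dcn and Lum) summed to 88.7 to 91.3 CPM in input, 243 to 270.4 in IgG and 320 to 339 in CPEB1 IP. In the same order the 4 endothelial markers summed to 28.3 to 33.5, 63.8 to 94.7 and 89.996 to 90.6 CPM, the 4 leukocyte markers to 20.5 to 31.9, 62.3 to 66.3 and 54.2 to 64.4, the 4 myofibre markers to 52.6 to 66.9, 102 to 111 and 122 to 149, and the 3 Schwann cell markers to 41.4 to 46.3, 65.6 to 91.9 and 91.2 to 105. The endothelial, leukocyte and Schwann ranges of IgG and CPEB1 IP overlapped. The sum of the 3 smooth muscle and pericyte markers went the other way. It was 277 to 375 CPM in input, 164 to 166 in IgG and 168 to 187 in CPEB1 IP. Rgs5 carried most of it, with 245 and 337 CPM in input and 127 and 126 in IgG. Myh11 was higher in IgG (20.5 and 21.1 CPM) than in input (12.6 and 19.8), and Cspg4 overlapped between IgG and input. Single genes carried most of other sums too. Dcn did so for the fibro-adipogenic and Acta1 for the myofibre sum in every library, and Lyz2 for the leukocyte sum in CPEB1 IP. Dcn and Lyz2 were higher in CPEB1 IP than in IgG. In contrast, Pdgfra was higher in IgG (6.84 and 8.01 CPM) than in CPEB1 IP (4.58 and 2.89), as was Ptprc. Cd68 overlapped between CPEB1 IP and input. The part of other cell types in the results below was not tested, and in bulk RNA fewer cells of a type and less RNA per cell cannot be told apart.

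All 9 repressor transcripts were detected in every library. On the FPKM scale, which allows genes of different length to be compared, G3bp1 was the highest in input, at 37.2 and 40.4 FPKM. Stau1 followed at 32.1 and 33.6, then Pum2 at 20.3 and 24.95 and Caprin1 at 18.9 and 24.8. G3bp1, Stau1 and Pum2 did not overlap in that order, whereas the ranges of Pum2 and Caprin1 did. Fxr2 (9.64 and 12.9 FPKM), G3bp2 (7.76 and 9.85) and Fxr1 (5.94 and 8.75) formed a lower tier in which each overlapped the next. Fmr1 was at 3.78 and 5.88 FPKM. Stau2 was the lowest, at 0.741 and 1.64 FPKM from 23 and 46 counts, and stood at the 27th percentile of the 14276 genes kept by the filter over 6 libraries, against the 93rd for G3bp1.

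The order changed in the immunoprecipitates. In CPEB1 IP the FPKM of G3bp1 was 55.6 and 56.5, that of Pum2 32.3 and 33.1 and that of Stau1 24.9 and 24.4. Pum2 therefore passed Stau1, and it did so in IgG as well, with 16.7 and 16.0 FPKM against 12.8 and 12.3. G3bp2 took the sixth place in input and the seventh in CPEB1 IP, where its range of 4.91 to 5.13 FPKM overlapped that of Fmr1 (4.27 to 5.05), and to the eighth in IgG, at 1.88 and 2.39. Mean FPKM was lowest in IgG for every member, although single libraries of Fmr1 and Stau2 overlapped those of other groups. The total behind the IgG values holds the largest share outside genes. Groups were therefore compared on counts normalized by TMM (trimmed mean of M values) and given as CPM.

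**Figure D2:**
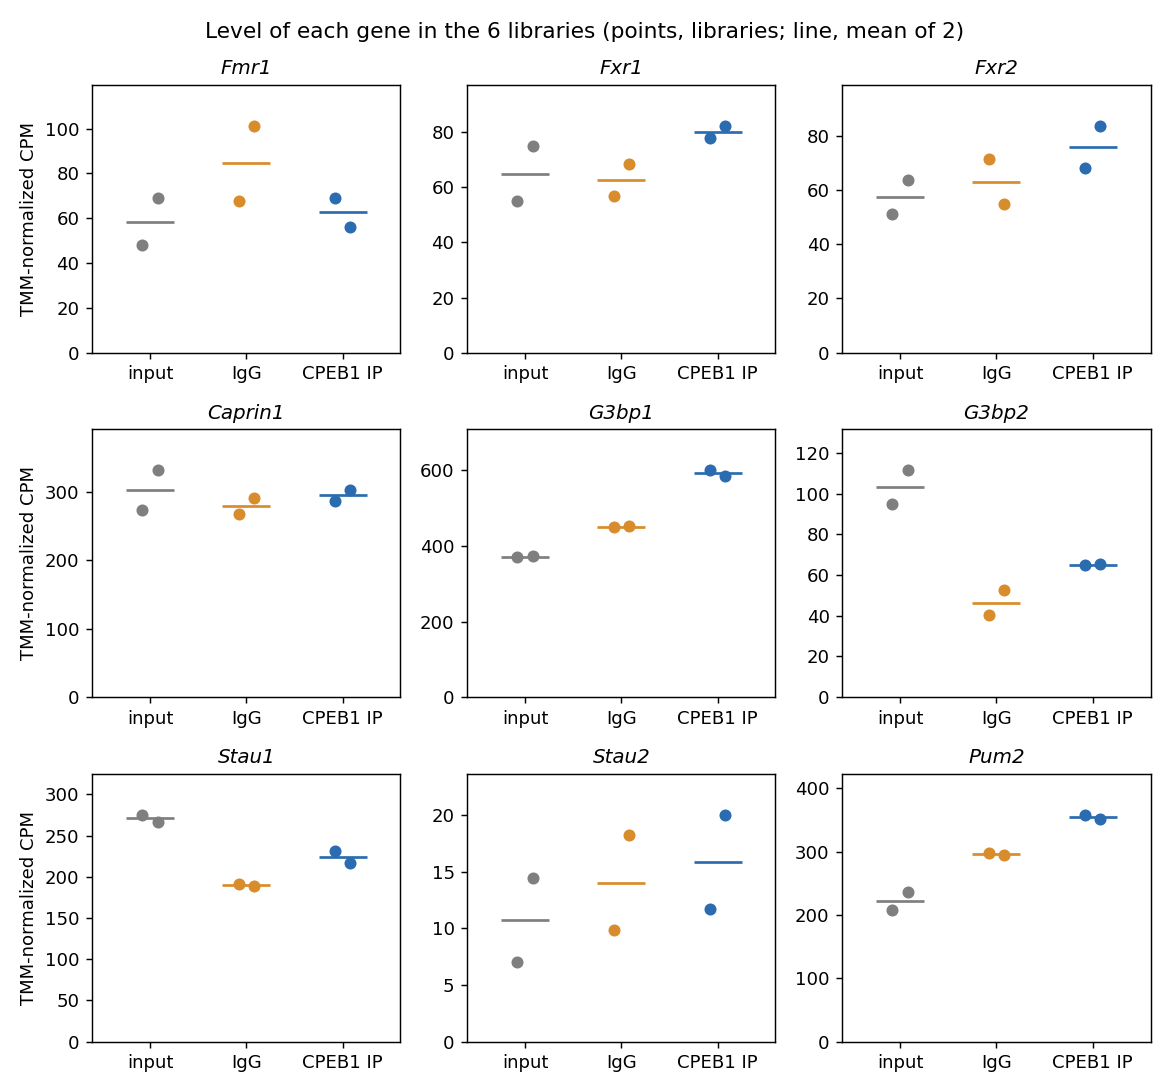
TMM-normalized CPM (y axis, from 0) of each of the 9 genes in the 2 input, 2 IgG and 2 CPEB1 IP libraries; points are libraries and lines the mean of 2. G3bp1 and Pum2 climb from input to IgG to CPEB1 IP with no overlap, while G3bp2 and Stau1 are highest in input and lowest in IgG.

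In CPEB1 IP against IgG, G3bp1 was higher and Fmr1 was lower, and the other 7 genes did not pass the test. Genes were tested by the quasi-likelihood method of edgeR, with p-values adjusted by Benjamini-Hochberg over all 12124 genes and a threshold of 0.05. It called 14.7% of all genes higher and 18.7% lower, so 1 of 9 in each direction is near the background. The median log2 fold change of the 9 genes was 0.20, against -0.01 for all genes tested, and 8 of the 9 lay above 0 where 49.2% of all genes did.

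G3bp1, a nucleator of stress granules, had 600 and 586 CPM in CPEB1 IP and 450.4 and 452 CPM in IgG. Both CPEB1 IP libraries stood above both IgG libraries. The log2 fold change was 0.33 ± 0.09 (SE), or 1.26-fold, with an adjusted p of 0.00825 and a 95% interval of 0.14 to 0.52. It held in all 11 other settings tried, at log2 fold changes from 0.31 to 1.13. The G3bp1 value lay at the 74th percentile of all genes tested.

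Fmr1 had 69.2 and 56.1 CPM in CPEB1 IP and 67.6 and 101 CPM in IgG. These ranges overlapped, and the IgG libraries differed from each other by 89 against 139 counts. The log2 fold change was -0.52 ± 0.18 with an adjusted p of 0.0285. The call was lost in 6 of the 11 other settings, among them without IgG replicate 2, where the log2 fold change was -0.15 (adjusted p = 0.603), and without CPEB1 IP replicate 2, where it was -0.33 (adjusted p = 0.356). Scaled to the library total behind the deposited FPKM, which moves the median of all genes from -0.01 to 0.80, it was 0.29 (adjusted p = 0.151). Fmr1 was the only member whose estimate under TMM lay below 0.

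The Fmr1 paralogs did not pass in either direction. Fxr1 had 77.9 and 82.4 CPM in CPEB1 IP and 57.0 and 68.5 in IgG, with no overlap, and a log2 fold change of 0.29 (95% interval -0.03 to 0.62, adjusted p = 0.165). Fxr2 had 67.9 and 83.6 CPM in CPEB1 IP and 71.4 and 54.6 in IgG, with overlap, and a log2 fold change of 0.22 (interval -0.13 to 0.58, adjusted p = 0.343).

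G3bp2, the paralog of G3bp1, had 65.0 and 65.2 CPM in CPEB1 IP and 40.3 and 52.4 in IgG. The groups did not overlap and its log2 fold change of 0.42 was the largest of the 9, yet with 53 and 72 counts in IgG the interval was wide (0.05 to 0.79) and the adjusted p was 0.0747. Without IgG replicate 2 it passed, at 0.68 (adjusted p = 0.0262). Caprin1, the partner of the G3bp proteins, was level, at 286 and 303 CPM in CPEB1 IP and 268 and 291 in IgG. Its log2 fold change was 0.01 with an interval of -0.19 to 0.22 (adjusted p = 0.934).

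The Staufen and Pumilio transcripts were slightly above IgG without passing. Stau1 had 231 and 217 CPM in CPEB1 IP and 191 and 189 in IgG, a log2 fold change of 0.17 (interval -0.05 to 0.39, adjusted p = 0.243). Stau2 had 11.7 and 20.02 CPM against 9.87 and 18.2 and a log2 fold change of 0.16, with an interval from -0.62 to 0.94 that covers a large change in either direction (adjusted p = 0.782). Pum2 had 358 and 352 CPM in CPEB1 IP and 298 and 294 in IgG. Its groups did not overlap, and its log2 fold change was 0.20 (interval -0.0036 to 0.39, adjusted p = 0.125).

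**Figure D3:**
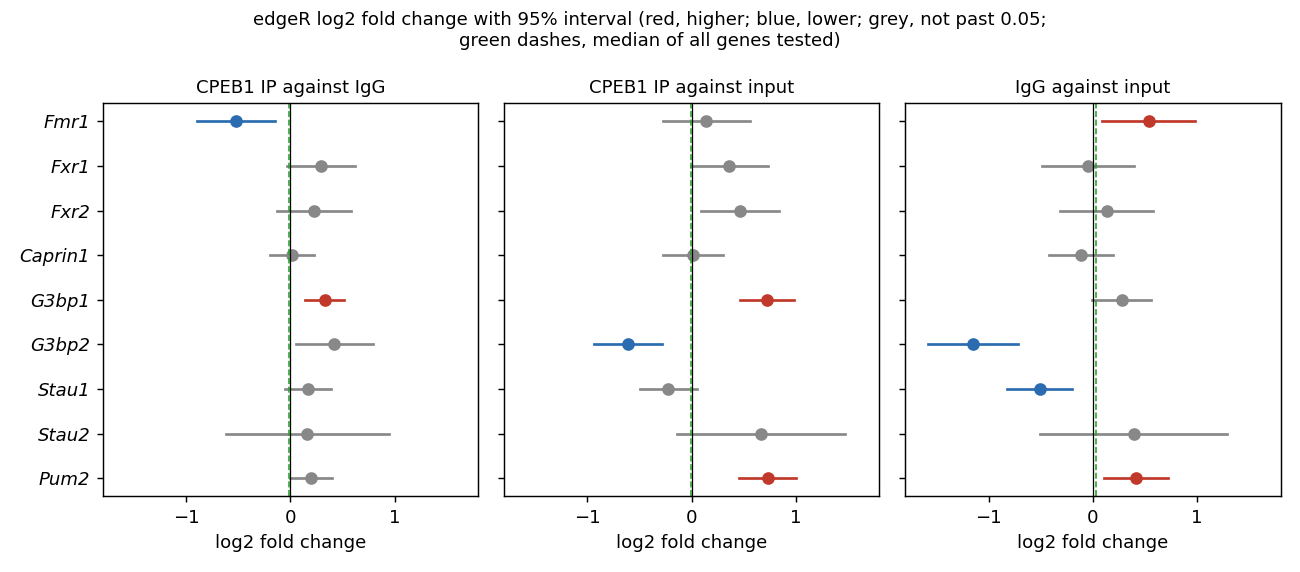
Log2 fold change (x axis) of each gene in the 3 comparisons from edgeR, with lines for the 95% interval; red is higher, blue lower and grey not past an adjusted p of 0.05, and green dashes are the median of all genes tested. Against IgG, G3bp1 (0.33) is red and Fmr1 (-0.52) blue; against input, G3bp1 and Pum2 are both red, at 0.72 and 0.73.

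The number of members called against IgG depended on the scaling and on the genes used for it. DESeq2 called 6 of the 9 higher, edgeR without a filter on low counts 7 and edgeR with the library total behind the deposited FPKM 8, and none of these settings called a member lower. The same settings called 13.6%, 8.36% and 59.0% of the genes with an adjusted p higher. These were 19222, 42045 and 12124 genes, so the first 2 shares also cover genes that the filter on low counts removes. They are therefore not like for like with the share of the main test. In each of them the whole distribution moved too. The median log2 fold change of the genes tested went from -0.01 to 0.27, 0.39 and 0.80, and that of the 9 members from 0.20 to 0.48, 0.59 and 1.002.

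For a further criterion, CPEB1 IP and IgG libraries of the same replicate number were taken as 1 experiment. It asked for a ratio of FPKM + 1 above 2 in each of the 2 experiments together with the adjusted p under 0.05. G3bp1 met it and the other 8 genes did not. The G3bp1 ratio was 2.11 in the first experiment and 2.19 in the second. Of all genes tested, 14.4% had a ratio above 2 in both experiments and 12.1% met the whole criterion. Several members lay just outside. Pum2 had ratios of 1.88 and 2.00, G3bp2 2.05 and 1.81, Fxr1 1.94 and 1.87, Stau1 1.88 and 1.91, and Fxr2 1.47 and 2.40. With a pseudocount of 0.1 in place of 1, Fxr1 and G3bp2 also had a ratio above 2 in both experiments, but only G3bp1 met the whole criterion. Caprin1 had ratios of 1.66 and 1.74 and Stau2 of 1.34 and 1.46, against a median of 1.45 and 1.52 over all genes tested. Fmr1 was at 1.49 in the first experiment and 0.965 in the second.

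These ratios carry the scaling of the deposited FPKM. With FPKM rebuilt from the counts on TMM library sizes, the G3bp1 ratio was 1.27 and 1.24, the median of all genes tested was 0.992 and 0.988, and no member met the criterion. The number of genes that met it fell from 1464 to 56. G3bp1 was thus above the typical gene on both scales, and above the ratio of 2 on the deposited scale only.

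**Figure D4:**
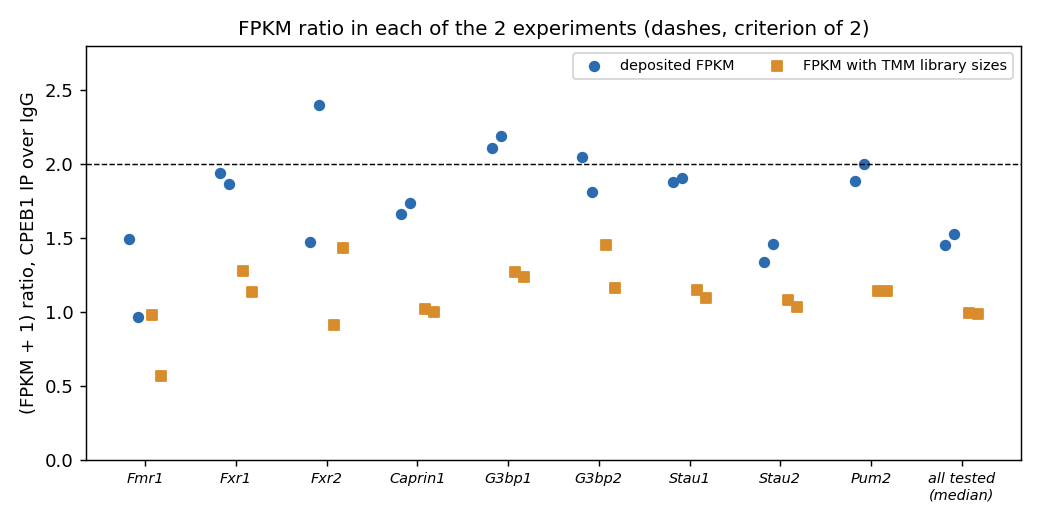
Ratio of FPKM + 1 in CPEB1 IP over IgG (y axis, from 0) in each of the 2 experiments for the 9 genes and for the median of all genes tested, from the deposited FPKM (blue circles) and from FPKM with TMM library sizes (orange squares); the dashed line is the criterion of 2. Only G3bp1 has both blue circles above the line, and all orange squares lie below it.

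Against input, G3bp1 and Pum2 were higher in CPEB1 IP and G3bp2 was lower. The test called 17.0% of the 12171 genes higher and 15.8% lower, against 2 and 1 of the 9. The median log2 fold change of the 9 genes was 0.36, against -0.0038 for all genes tested.

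G3bp1 had 371 and 373 CPM in input, below both CPEB1 IP libraries (600 and 586), and its log2 fold change was 0.72 ± 0.12, or 1.65-fold (adjusted p = 7.16e-04). Pum2 had 208 and 237 CPM in input, below its 358 and 352 in CPEB1 IP, and its log2 fold change was 0.73 ± 0.13, or 1.66-fold (adjusted p = 9.63e-04). Both calls held in all 11 other settings. G3bp2 had 94.8 and 111 CPM in input, above both CPEB1 IP libraries (65.0 and 65.2), and its log2 fold change was -0.61 ± 0.15 (adjusted p = 0.00811). That call was lost without either CPEB1 IP library, where the adjusted p was 0.114 and 0.0924 at log2 fold changes of -0.59 and -0.65.

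The other members did not pass against input. Fxr2 had 51.3 and 63.6 CPM in input and a log2 fold change of 0.47 (interval 0.09 to 0.84, adjusted p = 0.0548). Fxr1 had 54.9 and 74.9 CPM in input and a log2 fold change of 0.36 (interval -0.01 to 0.73, adjusted p = 0.122). Both stood above input without overlap. Without input replicate 2, which was the higher of the 2 for Fxr1, Fxr2 and Stau2, Fxr1 (0.59), Fxr2 (0.62) and Stau2 (1.27) passed as well, so that 5 members were called higher.

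Stau1 had 275 and 266 CPM in input, above its CPEB1 IP libraries, and its log2 fold change was -0.22 (interval -0.50 to 0.05, adjusted p = 0.197). Stau2 had 7.06 and 14.5 CPM in input and a log2 fold change of 0.67 (interval -0.14 to 1.47, adjusted p = 0.189). Fmr1 had 47.9 and 69.0 CPM in input and overlapped CPEB1 IP (log2 fold change 0.14, adjusted p = 0.611). Caprin1 had 273 and 332 CPM in input and was again level, at 0.02 with an interval of -0.27 to 0.31 (adjusted p = 0.936). The sign of the Caprin1 value changed in 7 of the 11 other settings.

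IgG against input shows how each transcript behaves in a precipitate without the CPEB1 antibody. It called 21.4% of the 12980 genes higher and 19.4% lower. Of the 9 members, Fmr1 and Pum2 were higher in IgG and G3bp2 and Stau1 were lower. DESeq2 and edgeR without a filter called the same number lower but 0 higher, where they called 6.49% of 18313 and 10.3% of 40052 genes higher. These pools also hold genes that the filter on low counts removes. The total behind the deposited FPKM gave 0 higher and 7 lower, where it called 8.54% of all genes higher and 55.3% lower. G3bp2 had the largest difference of any member in any comparison, with 40.3 and 52.4 CPM in IgG against 94.8 and 111 in input and a log2 fold change of -1.15 ± 0.21 (adjusted p = 3.36e-05). That call held in all 11 other settings. Stau1 had 191 and 189 CPM in IgG against 275 and 266 in input. Its log2 fold change was -0.51 ± 0.15 (adjusted p = 0.00753), and it did not pass without either IgG library (adjusted p = 0.129 and 0.143).

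Pum2 had 298 and 294 CPM in IgG, above both input libraries, and its log2 fold change was 0.41 ± 0.15 (adjusted p = 0.0257). Fmr1 had a log2 fold change of 0.54 ± 0.22 (adjusted p = 0.0484), with IgG and input overlapping. Each of these calls was lost in 4 other settings without a change of sign, and with the library total behind the deposited FPKM both turned negative, at -0.47 for Pum2 and -0.36 for Fmr1, while the median of all genes moved to -0.85. G3bp1 did not pass, at 0.28 (interval -0.01 to 0.56, adjusted p = 0.114), although its 450.4 and 452 CPM in IgG lay above both input libraries. Stau2 (0.39, adjusted p = 0.504), Fxr2 (0.13, adjusted p = 0.662), Fxr1 (-0.05, adjusted p = 0.883) and Caprin1 (-0.11, adjusted p = 0.577) did not pass either.

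Set side by side, the 3 comparisons gave Pum2 log2 fold changes of 0.73 against input and 0.20 against IgG in CPEB1 IP, with 0.41 in IgG against input. The corresponding values were 0.72, 0.33 and 0.28 for G3bp1 and -0.61, 0.42 and -1.15 for G3bp2. These comparisons share libraries, so they are not independent of each other.

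Ratios of related genes inside a library do not depend on how libraries are scaled. Per base of exon, G3bp1 exceeded G3bp2 by 4.79 and 4.10 in input, by 13.7 and 10.6 in IgG and by 11.3 and 11.01 in CPEB1 IP. Both immunoprecipitates lay above input without overlap, and the CPEB1 IP values lay inside the IgG range. The Stau1 to Stau2 ratio was 43.4 and 20.5 in input, 21.6 and 11.6 in IgG and 22.1 and 12.1 in CPEB1 IP, and its groups overlapped. Replicate 1 lay above replicate 2 in every group, and Stau2 had 13 to 97 counts in a library. Fxr1 to Fmr1 was 1.57 and 1.49 in input, 1.15 and 0.925 in IgG and 1.54 and 2.01 in CPEB1 IP, so that both CPEB1 IP values and both input values exceeded both IgG values. Fxr2 to Fmr1 was 2.55 and 2.20 in input, 2.51 and 1.28 in IgG and 2.34 and 3.54 in CPEB1 IP, with overlap. With 2 libraries a group, an exact permutation test of such a ratio cannot go below p = 0.333, so these ratios are given as a description.

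**Figure D5:**
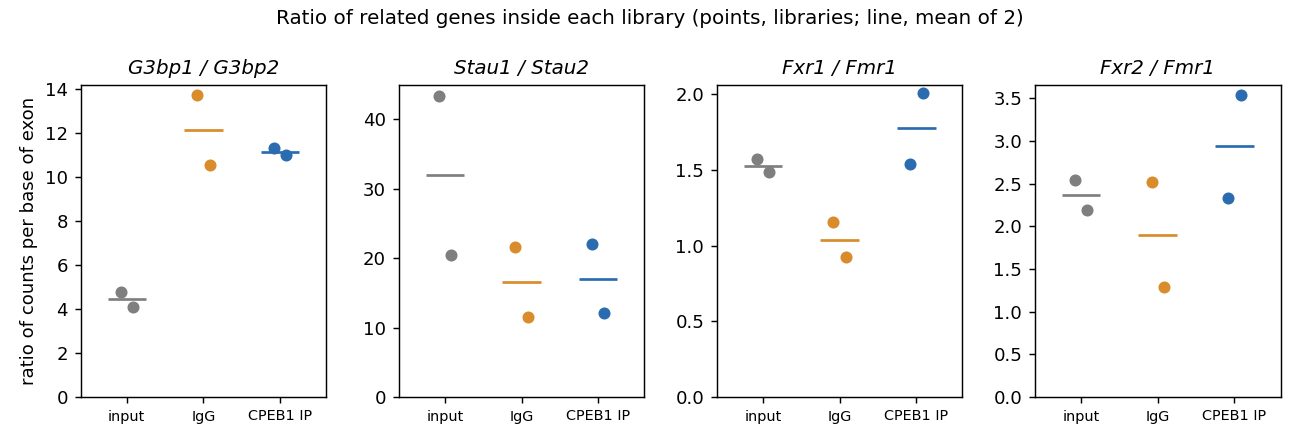
Ratio of counts per base of exon between related genes (y axis, from 0) inside each input, IgG and CPEB1 IP library; points are libraries and lines the mean of 2. The G3bp1 to G3bp2 ratio is 4.10 to 4.79 in input and 10.6 to 13.7 in the immunoprecipitates.

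Across the 6 libraries, G3bp1 and Pum2 had the most similar profiles of any 2 members. Likeness was the Euclidean distance between log2 CPM profiles centred on their own mean, and this pair was 0.20 apart, where the next closest pair, Fxr1 and Caprin1, was 0.40 apart. Among all 14276 genes, the nearest to G3bp1 were Atf6 (0.09), an endoplasmic reticulum stress transcription factor, and Nr1d1 (0.09), a nuclear receptor of the circadian clock. Nearest to Pum2 were Stx6 (0.08) and Rack1 (0.09), the latter a ribosome-associated scaffold protein. Nearest to Stau1 were Cast (0.08), the inhibitor of calpain, and Pdxdc1 (0.08), to Caprin1 Alyref2 (0.11) and Rbm15b (0.11), and to G3bp2 Golim4 (0.13) and Mtmr6 (0.14). Fxr1 was nearest to Ier3ip1 (0.13) and Tmsb10 (0.14) and Fxr2 to Spr (0.13) and H2-T23 (0.14). Fmr1 (Gm10709 at 0.16, Gli3 at 0.23) and Stau2 (Zbtb39 at 0.34, Ube2q1 at 0.37) had no gene as near. With 6 libraries these distances describe the profiles and nothing more.

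The wider set of translation repressors and mRNA-binding regulators comprised 64 genes, of which 58 were tested against IgG. In CPEB1 IP against IgG, 10 were higher and 8 lower, beside the 14.7% and 18.7% of all genes, with a median log2 fold change of 0.08. Against input, 21 of 58 were higher and 4 lower, beside 17.0% and 15.8%, with a median of 0.27. In IgG against input, 14 of 59 were higher and 8 lower, with a median of 0.14 against 0.03 for all genes, while DESeq2 called 5 higher and 6 lower and the total behind the deposited FPKM gave 0 and 35. The count against input fell to 13 higher with the library total behind the deposited FPKM, to 13 without CPEB1 IP replicate 1 and to 11 without CPEB1 IP replicate 2. The 4 lower became 7 with totals on genes and without either input library, 8 with the total behind the deposited FPKM and 1 without CPEB1 IP replicate 2. The count of 10 against IgG was 22 by DESeq2, 30 without a filter and 45 with the total behind the deposited FPKM, and the count of 8 lower was 1, 3 and 0 in these settings and 1 to 5 with a library left out.

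By group, none of the 5 tested partners of FMRP passed against IgG by edgeR, none by DESeq2 and none at an unadjusted p under 0.05, whereas against input 1 was higher and 2 lower, and DESeq2 called 2. Of the 12 stress granule genes, 1 passed against IgG, as higher, and 4 were higher and 1 lower against input. DESeq2 called 6 and 3 of them. Of the 12 P-body repressors, 2 passed against IgG, both lower, and 3 passed against input, all of them higher. DESeq2 called 2 and 0 of them, and the 2 against IgG were higher. They did not include Lsm14b, which edgeR called lower. By DESeq2 Lsm14b stayed negative without passing (log2 fold change -1.23, adjusted p = 0.309). Of the 6 genes for double-stranded RNA binding proteins, 1 passed against each, lower against IgG and higher against input. DESeq2 called 1 and 0, and the 1 against IgG was higher. These counts do not say that both tools called the same gene. Of the 20 other mRNA-binding regulators, 7 were higher and 5 lower against IgG and 11 were higher and 1 lower against input. DESeq2 called 12 in each comparison. Of its 12 against IgG, only Msi2 was lower (log2 fold change -0.66, adjusted p = 0.00529). Of the 2 tested 4E-binding proteins, 1 was higher in both comparisons by both tools.

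A set of 6 genes on that list was higher in CPEB1 IP than in both IgG and input, as G3bp1 was. Of the 11158 genes tested in both comparisons, 5.68% were higher in both, and the comparisons share the CPEB1 IP libraries. Eif4ebp1, which sequesters the cap-binding protein eIF4E, had log2 fold changes of 0.52 against IgG (adjusted p = 3.04e-04) and 1.43 against input (adjusted p = 8.11e-06). Ddx3x, an RNA helicase found in stress granules, had 0.58 (adjusted p = 8.09e-05) and 0.63 (adjusted p = 0.00256). Samd4b, a Smaug repressor, had 0.59 (adjusted p = 2.66e-04) and 0.66 (adjusted p = 0.00265). Elavl1, the stabilizing protein HuR, had 0.41 (adjusted p = 0.00352) and 0.44 (adjusted p = 0.0187), and Paip2, an inhibitor of the poly(A)-binding protein, had 0.37 (adjusted p = 0.00918) and 0.60 (adjusted p = 0.00409). Serbp1, a ribosome-associated RNA-binding protein, had 0.28 (adjusted p = 0.0204) and 0.97 (adjusted p = 1.27e-04). The calls of Eif4ebp1 and Serbp1 held in all 11 other settings in both comparisons. Those of Ddx3x, Samd4b and Elavl1 held in all 11 against IgG but were lost against input in 1, 1 and 3 settings, and those of Paip2 were lost in 2 settings in each comparison.

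The largest differences from IgG on the list were mostly downward, and those of Igf2bp3 and Lsm14b rested on few counts. Samd4b, given above, was the only gene of the 5 largest that was higher. Igf2bp3, an oncofetal mRNA-binding protein, had 14 and 24 counts in CPEB1 IP and 26 and 18 in IgG, a log2 fold change of -1.68 (adjusted p = 0.00351) that was lost in 4 of 11 other settings. Lsm14b had 3 and 20 counts in CPEB1 IP and 9 and 12 in IgG, at -1.41 (adjusted p = 0.0423), and the call was lost in 8 settings. Msi2, a Musashi protein, had 161 and 257 counts in CPEB1 IP and 136 and 158 in IgG, at -0.96 (adjusted p = 1.06e-04), and was lost only with the total behind the deposited FPKM. Ybx1, a Y-box protein that packages mRNA, had 949 and 998 counts in CPEB1 IP and 571 and 562 in IgG, at -0.58 (adjusted p = 0.0151). The value depended on the CPEB1 IP library used. It was -1.06 without CPEB1 IP replicate 1 and -0.13 without CPEB1 IP replicate 2. The Ybx1 call was lost in 6 settings and its sign turned in 1 further setting.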

How the data were processed

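The 6 RIP-seq libraries of fiSCs (2 per group) were grouped by their labels. The authors mapped reads to mm10 with HISAT2, assigned them to genes by featureCounts, and deposited raw counts per gene with the summed exon length in bases. The authors deposited FPKM computed from these counts with a library total larger than the counts on genes. The annotation release and strand setting are not given in the sources used here. Libraries carried SMART-seq2 amplification without molecular identifiers, so precision covers the spread between 2 libraries. Nothing in the labels says that they came from separate animals. The paper gives the CPEB1 RIP as 2 independent experiments and states 2 biological replicates per group for RNA-seq.

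Tests on the counts used edgeR 4.0.16 under R 4.3.3 (filterByExpr, TMM, quasi-likelihood test, Benjamini-Hochberg adjustment at 0.05), 2 groups at a time. The SE is the log2 fold change divided by the square root of F. CPM was normalized over all 6 libraries. DESeq2 1.42.0, RLE, other library totals, no filter, a replicate block, a joint fit of 6 libraries, pseudocounts and leaving out each library were alternatives. Motifs were searched in 3′ UTRs of GENCODE M21 protein-coding transcripts, whose start and end matched the count tables for all 9 genes. Python 3.11.15, numpy 2.4.6, pandas 2.3.3 and matplotlib 3.10.9 were used.

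The members, gene lists and markers were chosen with earlier results of these data known. Named genes are the 9 members, listed regulators past 0.05 in the same direction against both groups, the 5 with the largest log2 fold change among those past 0.05 against IgG, and the 2 nearest profiles for each member. The authors' tables hold no comparison columns used here. One gene of the wider list and one sequence window are not reported here.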

Additional observations from a re-analysis of the deposited data

How the results depend on the processing

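Each group had 2 libraries, so the errors lean on a spread pooled over genes. Stau2 had the fewest counts of the members. A library left alone in its group was assumed to vary like the other group.

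Of the members' log2 fold changes, RLE size factors and the replicate block changed no call. Deviations of same-numbered libraries correlated at -0.0107, -0.0206 and 0.0324 for CPEB1 IP with IgG, CPEB1 IP with input and IgG with input. The block left 1 member higher and 1 lower against IgG in the paired fit. In the main tests the numbers were not taken as pairs, whereas the FPKM ratios paired CPEB1 IP and IgG libraries of the same number. The calls that held in all 11 settings were those of G3bp1 against IgG and input, Pum2 against input and G3bp2 in IgG against input.

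For CPEB1 IP against IgG, genes called higher (1779) became 7149 with the total behind the deposited FPKM and 3513 without a filter, and 1054 to 1783 with a library left out. Genes called lower (2265) became 984 by DESeq2 and 937 with that total, and 677 to 1750 with a library left out. Members called higher (1) became 6 by DESeq2, 8 with that total and 7 without a filter, and 1 to 2 with a library left out. Members called lower (1) became 0 by DESeq2, with that total, without a filter and in the fit of all 6 libraries, and 0 to 1 with a library left out.

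For CPEB1 IP against input, genes called higher (2069) became 1230 by DESeq2 and 1235 with the total behind the deposited FPKM, and 957 to 2646 with a library left out. Genes called lower (1921) became 1190 by DESeq2, and 1064 to 2347 with a library left out. Members called higher (2) and lower (1) became 2 to 5 and 0 to 1 with a library left out.

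For IgG against input, genes called higher (2772) became 1188 by DESeq2 and 1108 with the total behind the deposited FPKM, and 1354 to 2170 with a library left out. Genes called lower (2515) became 1602 by DESeq2 and 7180 with that total, and 1709 to 2400 with a library left out. Members called higher (2) became 0 by DESeq2, with that total and without a filter, and 0 to 2 with a library left out. Members called lower (2) became 7 with that total, and 1 to 2 with a library left out. The median of all genes moved with these totals, from 0.03 to -0.85 here.

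The FPKM ratio criterion was met by 673 genes and 0 members with a pseudocount of 5 and by 56 genes and 0 members with TMM library sizes, against 1464 and 1; with a single experiment it was met by 1533 to 1691 genes and 1 member.

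These signs turned. Against IgG, Caprin1 was -0.0039 with totals on genes, and with the total behind the deposited FPKM Fmr1 was 0.29 and Ybx1 0.21. Against input, Caprin1 was -0.017 by DESeq2, -0.060 with totals on genes, -0.18 with the total behind the deposited FPKM, -0.010 without a filter and -0.035 in the fit of all 6 libraries, and Fmr1 was -0.059 with the total behind the deposited FPKM. In IgG against input, Fxr2 was -0.0086 by DESeq2 and -0.14 without a filter, Fxr1 was 0.012 with totals on genes, and with the total behind the deposited FPKM Fmr1 was -0.36, Fxr2 -0.75, G3bp1 -0.60, Stau2 -0.50 and Pum2 -0.47. With a library left out, the ranges that crossed 0 against IgG were -0.0074 to 0.12 for Caprin1 and -0.31 to 0.73 for Stau2. Against input they were -0.13 to 0.40 for Fmr1 and -0.13 to 0.15 for Caprin1. In IgG against input they were -0.23 to 0.17 for Fxr1, -0.090 to 0.30 for Fxr2, -0.22 to 0.010 for Caprin1 and -0.14 to 0.97 for Stau2. Fmr1 against IgG ranged from -0.73 to -0.15. The median of all genes shifted too where a total replaced TMM, by DESeq2 and without a filter. The cause of the turned signs was not tested.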
